A study of Mus musculus with 16 samples.

Results

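The phagocyte NADPH oxidase was examined through 7 genes, *Cybb*, *Cyba*, *Ncf1*, *Ncf4*, *Rac1*, *Rac2* and *Hvcn1*, chosen by name as subunits of the enzyme or partners it needs. All 7 were among the 24421 gene symbols of the count files. Their transcripts were measured in monocytic and granulocytic myeloid-derived suppressor cells (M-MDSCs and G-MDSCs) sorted from spleens of C57BL/6 mice that carried subcutaneous B16.F10 tumors, a mouse melanoma line. The labels name the sorts by Ly6C and Ly6G. Mice were wild type (WT) or lacked NLRP3 (Nlrp3-/-), and each of 8 mice, 4 per genotype, gave both subsets, so that 16 libraries form 4 groups of 4. In Nlrp3-/- mice an EGFP cassette with its own poly(A) signal was joined to the start codon in exon 2 of *Nlrp3* in every cell, and the neo cassette had been removed by Cre. WT mice were bought and Nlrp3-/- mice came as a separate line, so the deletion and the origin of the line cannot be told apart. Mice were sex- and age-matched, all bore the tumor, and tumor-free mice were not part of the sequencing.

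The oxidase moves electrons from NADPH across a membrane to oxygen and so makes superoxide, which neutrophils and monocytes use against microbes and MDSCs against T cells. Its membrane core is a pair of proteins, gp91phox (*Cybb*) and p22phox (*Cyba*). On activation p47phox (*Ncf1*) and p40phox (*Ncf4*) come from the cytosol as parts of a complex, together with a Rac GTPase, and the proton channel HV1 (*Hvcn1*) carries off the charge that the electrons build up.

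Promoter windows of RefSeq (build GRCm38.p6), from 250 bases before to 50 after the start of transcription, were matched for 3 of the 7 genes. All 3 matched are shown, whatever their values. *Cybb* and *Ncf1* differed between the subsets in opposite directions while *Cyba* passed the threshold in no comparison, and a link of the windows to this was not tested. The *Cybb* window lies inside the span that GENCODE M21 gives the gene. Each is written 5′ to 3′ on the gene's own strand, the minus strand for all 3, at chrX:9469275-9469574 for *Cybb*, chr5:134229576-134229875 for *Ncf1* and chr8:122432891-122433190 for *Cyba*. Capitals mark matches on either strand to GAGGAA (the core bound by PU.1), GGAANNGAA (a joint ETS and IRF element), GAAANNGAA (an interferon response element) or TTGCNNAA (C/EBP).
Cybb: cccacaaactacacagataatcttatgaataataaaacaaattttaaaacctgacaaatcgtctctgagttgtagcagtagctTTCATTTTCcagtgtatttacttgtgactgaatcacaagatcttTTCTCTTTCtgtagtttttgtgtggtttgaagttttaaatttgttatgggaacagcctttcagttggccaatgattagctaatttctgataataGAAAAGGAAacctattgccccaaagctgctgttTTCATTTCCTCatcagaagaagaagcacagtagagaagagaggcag
Ncf1: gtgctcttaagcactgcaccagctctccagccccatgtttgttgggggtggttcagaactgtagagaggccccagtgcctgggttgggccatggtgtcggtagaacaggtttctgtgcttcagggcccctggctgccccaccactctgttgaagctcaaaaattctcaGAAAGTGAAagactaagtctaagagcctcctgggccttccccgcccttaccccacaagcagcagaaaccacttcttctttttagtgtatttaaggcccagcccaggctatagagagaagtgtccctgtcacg
Cyba: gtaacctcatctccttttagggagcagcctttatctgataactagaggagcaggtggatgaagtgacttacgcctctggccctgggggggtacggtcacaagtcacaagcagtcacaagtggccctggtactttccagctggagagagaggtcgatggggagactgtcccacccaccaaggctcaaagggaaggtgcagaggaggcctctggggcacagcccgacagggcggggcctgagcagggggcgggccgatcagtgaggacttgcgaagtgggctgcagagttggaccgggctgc
The *Cybb* window held 1 match to GAGGAA, 1 to GGAANNGAA, which overlap on the strand opposite the gene just after the start, and 3 to GAAANNGAA. The *Ncf1* window held 1 match to GAAANNGAA, and the *Cyba* window none to any of the 4. Of 32851 windows of this length, 28.3% held GAGGAA, 8.24% GGAANNGAA, 8.56% GAAANNGAA and 10.8% TTGCNNAA. A match is a run of letters and not a bound site.

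Libraries held between 2295967 and 6079866 counts. In counts scaled to library size (CPM), *Nlrp3* lay between 40.7 and 88.9 in M-MDSCs and between 252 and 331 in G-MDSCs of WT mice, while mice of the Nlrp3-/- line had at most 1.88 and 13.6, so the targeted gene followed the labels in all 16 libraries. Summed markers followed the sort labels. All 6 monocyte markers (such as *Ccr2* and *F13a1*) passed the filter on low counts and summed to 4622 to 8772 CPM in M-MDSCs and 628 to 1208 in G-MDSCs. The neutrophil markers measured, 9 of 10, summed to 114361 to 174491 CPM in G-MDSCs and 1297 to 2358 in M-MDSCs, except for 8542 in WT M-MDSC replicate 2. In every fit that left out 1 library, that one included, the 5 genes called between the subsets kept their calls. *Ly6g* itself was not matched. CPM were scaled by TMM over all 16 libraries and count reads near the 3′ end of transcripts without division by length, so levels are compared between groups and not between genes.

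The subsets differed in 5 of the 7 genes, and in the same 5 in both genotypes. *Ncf1*, *Ncf4*, *Rac2* and *Hvcn1* were higher and *Cybb* was lower in G-MDSCs than in M-MDSCs of WT mice, and again of Nlrp3-/- mice, while *Cyba* and *Rac1* did not pass. A gene was called where edgeR's quasi-likelihood test gave a Benjamini-Hochberg adjusted p under 0.05 and the fold change was at least 1.5. Of all genes tested, 26.3% were called higher and 27.1% lower in WT G-MDSCs than in WT M-MDSCs, and 23.7% and 27.4% in Nlrp3-/- mice. Against that background, 4 of 7 genes were called higher and 1 of 7 lower. The 7 genes were chosen with earlier results of these data known, so the comparison with all genes is a description and was not tested. The median log2 fold change of the 7 genes was 1.21 in WT and 1.13 in Nlrp3-/- mice, beside −0.05 and −0.12 over all genes tested. In such bulk samples, more cells of one kind and more RNA per cell cannot be told apart.

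**Figure D1:**
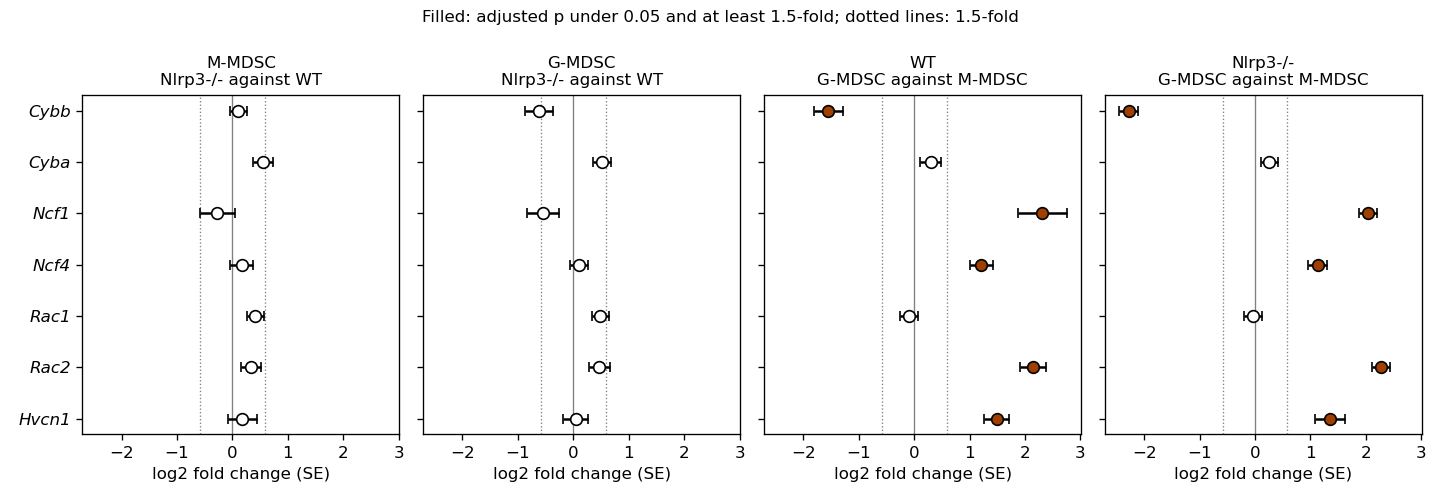
Log2 fold change (horizontal axis, with its standard error) of each of the 7 genes in 4 comparisons, with filled points for genes called. *Cybb* lies to the left and *Ncf1*, *Ncf4*, *Rac2* and *Hvcn1* to the right in both comparisons of G-MDSCs with M-MDSCs, while no point is filled in the 2 comparisons of genotypes.

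*Cybb* encodes the catalytic subunit gp91phox, which binds NADPH, flavin and haem (X:9435252-9487771, minus strand, gene positions from GENCODE M21 on mm10). In WT M-MDSCs it was at 2200.1, 1787, 1990.3 and 2103 CPM in replicates 1 to 4, and in Nlrp3-/- M-MDSCs at 1982, 2050.3, 2554 and 1973. In WT G-MDSCs it was at 639, 1083, 418 and 606 CPM, and in Nlrp3-/- G-MDSCs at 596, 405, 486 and 424. Every M-MDSC library lay above every G-MDSC library, whereas the genotypes overlapped in both subsets, so the 2 M-MDSC groups cannot be put in order, nor can the 2 G-MDSC groups. *Cybb* was 2.94-fold lower in G-MDSCs of WT mice (log2 fold change −1.55 ± 0.26 SE, adjusted p = 0.000316) and 4.83-fold lower in those of Nlrp3-/- mice (−2.27 ± 0.17, adjusted p = 8.25e-08). It was the only one of the 7 genes that was lower in G-MDSCs past the threshold.

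*Cyba* encodes p22phox, which holds gp91phox in the membrane and docks p47phox (8:122424776-122432930, minus strand). In M-MDSCs it was at 459, 291, 349 and 326 CPM in WT and at 431, 459, 611 and 551 in Nlrp3-/- replicates. In G-MDSCs it was at 559, 376, 429 and 383 CPM in WT and at 624, 635, 658 and 734 in Nlrp3-/- replicates. In ascending order the group means were those of WT M-MDSCs (356 ± 72.6 SD, n = 4), WT G-MDSCs (436 ± 84.8), Nlrp3-/- M-MDSCs (513 ± 83.1) and Nlrp3-/- G-MDSCs (663 ± 49.4), and of the neighbors in this order just the last pair did not overlap. The fold change between subsets was small, 1.23 in WT (adjusted p = 0.202) and 1.19 in Nlrp3-/- mice (adjusted p = 0.171), and *Cyba* was not called. Corrected for GC content and length, its log2 fold changes were 0.45 (adjusted p = 0.0346) and 0.39 (adjusted p = 0.033), still under the fold minimum.

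*Ncf1* encodes p47phox, the organizer that is phosphorylated on activation and brings the cytosolic complex to the membrane (5:134220053-134229625, minus strand). In M-MDSCs it was at 732, 261, 235 and 302 CPM in WT and at 257, 313, 376 and 297 in Nlrp3-/- replicates. In G-MDSCs it was at 3516, 1422, 1049 and 1595 CPM in WT and at 1376, 1359, 1187 and 1579 in Nlrp3-/- replicates. All G-MDSC libraries lay above all M-MDSC libraries, by 4.97-fold in WT (log2 fold change 2.31 ± 0.44 SE, adjusted p = 0.000756) and 4.10-fold in Nlrp3-/- mice (2.04 ± 0.16, adjusted p = 1.25e-07). WT replicate 1, a single mouse, had the highest *Ncf1* of the WT mice in both subsets, and WT samples therefore spread widely, with SDs of 235 CPM around a mean of 383 in M-MDSCs and 1104 around 1895 in G-MDSCs. Neutrophil markers summed to 1587, 8542, 1297 and 1674 CPM in WT M-MDSC replicates 1 to 4, and their part in the *Ncf1* level was not tested.

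*Ncf4* encodes p40phox, which binds phosphatidylinositol 3-phosphate on the phagosome (15:78244801-78262580, plus strand). In M-MDSCs it was at 184, 104, 106 and 115 CPM in WT and at 130.3, 112, 165 and 153 in Nlrp3-/- replicates. In G-MDSCs it was at 364, 281, 278 and 253 CPM in WT and at 274, 328, 339.6 and 393 in Nlrp3-/- replicates. The subsets did not overlap, and the difference was 2.32-fold in WT (log2 fold change 1.21 ± 0.21 SE, adjusted p = 0.000372) and 2.19-fold in Nlrp3-/- mice (1.13 ± 0.17, adjusted p = 7.2e-05). Genotypes overlapped in both subsets, and WT replicate 1 was again the highest WT mouse in both.

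*Rac1* and *Rac2* encode GTPases that switch on the oxidase, *Rac1* in nearly all cells and *Rac2* chiefly in blood cells. *Rac1* (5:143503634-143528036, minus strand) was at 376, 337, 402 and 367 CPM in WT M-MDSCs and at 517, 381, 496 and 541 in Nlrp3-/- ones, and at 334, 287, 424 and 341 in WT G-MDSCs and 512, 571, 468 and 506 in Nlrp3-/- ones. The subsets overlapped in both genotypes and *Rac1* was not called between them, with log2 fold changes of −0.10 ± 0.16 SE (adjusted p = 0.622) in WT and −0.03 ± 0.16 (adjusted p = 0.893) in Nlrp3-/- mice, the latter at 0.014 with DESeq2's size factors.

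*Rac2* (15:78559167-78572783, minus strand) was at 537, 348, 426 and 348 CPM in WT M-MDSCs and at 421, 464, 629 and 545 in Nlrp3-/- ones. In G-MDSCs it was at 2399, 1338, 1997 and 1586 CPM in WT and at 2327, 2624, 2697 and 3102 in Nlrp3-/- replicates. The lowest G-MDSC library was above the highest M-MDSC library, by a wide gap, and the fold difference was 4.42 in WT (log2 fold change 2.14 ± 0.23 SE, adjusted p = 9.48e-06) and 4.83 in Nlrp3-/- mice (2.27 ± 0.17, adjusted p = 6.16e-08). Between the genotypes of G-MDSCs, WT replicate 1 (2399 CPM) and Nlrp3-/- replicate 1 (2327 CPM) alone crossed.

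*Hvcn1* encodes the voltage-gated proton channel HV1, also well known in B cells (5:122206804-122242297, plus strand), and was the least deeply counted of the 7, at 29 to 162 counts per library. It was at 11.3, 11.7, 11.8 and 9.94 CPM in WT M-MDSCs and at 13, 15.4, 7.10 and 14.1 in Nlrp3-/- ones. In G-MDSCs it was at 30.7, 25.7, 25.9 and 44.0 CPM in WT and at 37.4, 34.3, 28.2 and 38.3 in Nlrp3-/- replicates. G-MDSC libraries lay above all M-MDSC libraries, by 2.80-fold in WT (log2 fold change 1.49 ± 0.23 SE, adjusted p = 0.000155) and 2.55-fold in Nlrp3-/- mice (1.35 ± 0.27, adjusted p = 0.000682). B cell markers (6 of 6 above the filter, among them *Cd79a* and *Ms4a1*) moved the same way, summing to 97.4 to 192 CPM in M-MDSCs and 262 to 397 in G-MDSCs. T cell markers (5 of 6 measured) summed to 45.6 to 109 CPM in M-MDSCs and 96.9 to 160 in G-MDSCs. Dendritic cell markers (3 of 5 above the filter) summed to 24.7 to 66.5 and 153 to 271 CPM, but did not move as a list, since *Itgax* made up most of the sum in G-MDSCs (means of 176 and 241 CPM in WT and Nlrp3-/- mice against 17.3 and 34.6 in M-MDSCs) and *Flt3* went the other way (0.566 and 1.18 against 17.4 and 17.9). The part of these cells in the *Hvcn1* result was not tested.

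**Figure D2:**
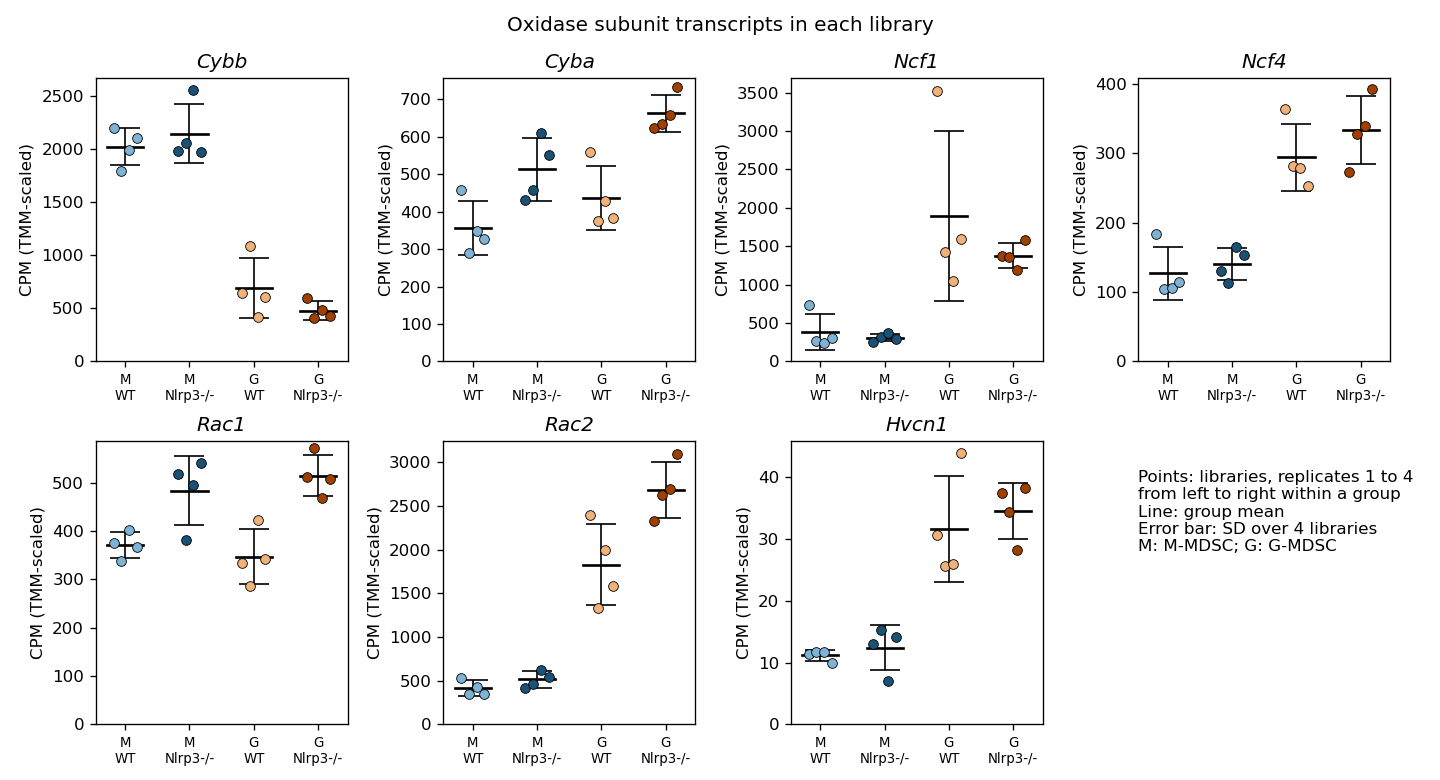
TMM-scaled CPM (vertical axes, from 0) of each gene in the 16 libraries, with points for libraries, lines for group means and error bars for the SD over 4 libraries. *Cybb* is high in both M-MDSC groups, *Ncf1*, *Ncf4*, *Rac2* and *Hvcn1* are high in both G-MDSC groups, and WT replicate 1 stands out for *Ncf1* in each subset (732 and 3516 CPM).

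Counted by libraries, 5 of 7 genes did not overlap between the subsets of WT mice and 6 of 7, with *Cyba* added, in Nlrp3-/- mice, beside 49.7% and 48.5% of all genes. The scale of comparison mattered for the smaller differences. When libraries were scaled by their totals alone, the median gene moved to −0.79 (WT) and −0.83 (Nlrp3-/-) on the log2 scale, and the genes called split into 1166 higher and 5061 lower in WT and 1146 and 5034 in Nlrp3-/- mice, instead of 2557 and 2636, and 2383 and 2758. On that scale *Cyba* was at −0.46 in both genotypes and *Rac1* at −0.84 and −0.75, both close to or above the median gene, and *Rac1* was called lower. *Ncf4* lost its call at 0.46 in WT and 0.41 in Nlrp3-/- mice, and *Hvcn1* at 0.63 in Nlrp3-/- mice (adjusted p = 0.0549), though each stayed above that median. *Cybb*, *Ncf1* and *Rac2* kept their calls in both genotypes.

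Within single mice the pattern was the same. *Cybb* was lower in the G-MDSCs than in the M-MDSCs of 8 of 8 mice, with log2 differences from −2.39 to −0.72, the smallest being that of WT replicate 2. *Cyba* was higher in the G-MDSCs of 8 of 8 mice on the TMM scale, by 0.11 to 0.53, a difference too small for the threshold of 1.5-fold. Its direction depended on the scale, since scaling by library totals put its log2 fold change between subsets at −0.46 in both genotypes. How many of all genes had the same direction in 8 of 8 mice was not counted. *Ncf1* was higher in 8 of 8 by 1.66 to 2.45, *Rac2* by 1.94 to 2.51, *Ncf4* by 0.98 to 1.54 and *Hvcn1* by 1.11 to 2.1. *Rac1* was higher in the G-MDSCs of 2 mice and lower in those of 6. The mouse with the high *Ncf1* (WT replicate 1) had a subset difference of 2.26, near those of the other WT mice, 2.45, 2.16 and 2.40.

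**Figure D3:**
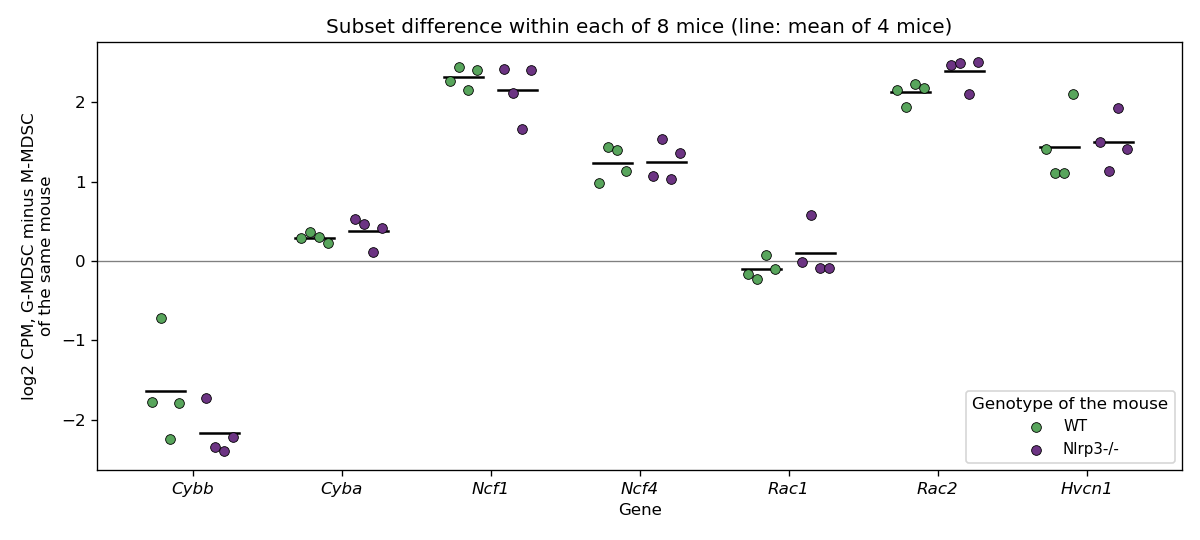
Difference in TMM-scaled log2 CPM between the G-MDSCs and M-MDSCs of each mouse (vertical axis) for the 7 genes. Points are mice and lines are means of 4 mice. All 8 points lie below 0 for *Cybb*, above 0 for *Cyba*, *Ncf1*, *Ncf4*, *Rac2* and *Hvcn1*, and on both sides of 0 for *Rac1*.

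Between genotypes no gene of the 7 was called. The count was 0 of 7 between Nlrp3-/- and WT M-MDSCs, where 3.51% of all genes tested were called higher and 7.1% lower, and 0 of 7 in G-MDSCs, where 4.7% were called higher and 11.7% lower. At the threshold of a call, DESeq2 and edgeR's exact test gave 0 in both subsets as well. At an unadjusted p under 0.05 edgeR's quasi-likelihood test gave 2 genes in M-MDSCs (*Cyba* and *Rac1*) and 4 in G-MDSCs (*Cybb*, *Cyba*, *Rac1* and *Rac2*). The share of all genes under that unadjusted p was not counted, so these 2 counts are not read as a result about the 7 genes. The median log2 fold change of the 7 genes was 0.18 in M-MDSCs and 0.10 in G-MDSCs, beside 0.07 and 0.03 over all genes tested.

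In G-MDSCs, *Cyba* was 1.43-fold higher in Nlrp3-/- than in WT mice (log2 fold change 0.52 ± 0.16 SE, adjusted p = 0.0346) and *Rac1* 1.40-fold higher (0.49 ± 0.16, adjusted p = 0.0445). Both passed the adjusted p but not the fold minimum, and for both every Nlrp3-/- library lay above every WT library. That made 2 of 7 genes without overlap between genotypes, beside 22.0% of all genes. The exact two-sided permutation test on log2 CPM gave p = 0.0286 for each, the smallest value that 4 against 4 allows, unadjusted over 7 genes. *Rac2* was 1.39-fold higher (adjusted p = 0.0932, exact permutation p = 0.0571). *Cybb* and *Ncf1* were lower in the mean, by log2 fold changes of −0.62 ± 0.25 (adjusted p = 0.102) and −0.54 ± 0.29 (adjusted p = 0.209), with overlapping libraries, and *Ncf4* (0.10 ± 0.16) and *Hvcn1* (0.05 ± 0.22) lay near 0.

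In M-MDSCs, *Cyba* was 1.46-fold higher in Nlrp3-/- mice (log2 fold change 0.55 ± 0.18 SE, adjusted p = 0.0655) and *Rac1* 1.33-fold higher (0.41 ± 0.16, adjusted p = 0.108). Neither passed, and their exact permutation p-values were 0.0857 and 0.0571. *Rac2* was at 0.33 ± 0.18 and *Cybb* at 0.11 ± 0.15 on the log2 scale, *Ncf4* and *Hvcn1* at 0.17 ± 0.21 and 0.18 ± 0.26, and *Ncf1* at −0.28 ± 0.32. None of the 7 genes separated the genotypes by library here, beside 18.4% of all genes.

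These genotype results turned on single WT libraries. Without M-MDSC WT replicate 1, *Cyba* passed in M-MDSCs (0.71, adjusted p = 0.0318) and *Ncf1* turned from −0.28 to 0.26. Without G-MDSC WT replicate 1, *Cyba* (0.65, adjusted p = 0.00969) and *Rac2* (0.62, adjusted p = 0.03) passed in G-MDSCs and *Ncf1* was at −0.08, and without G-MDSC WT replicate 3, *Rac1* (0.62, adjusted p = 0.0177) and *Cybb* (−0.77, adjusted p = 0.0315) passed. Without G-MDSC WT replicate 2, the mouse with 1083 CPM of *Cybb*, that gene was at −0.29. They moved with the processing too. Corrected for GC content and transcript length, *Cyba* was at 0.11 in G-MDSCs (adjusted p = 0.703) and 0.22 in M-MDSCs (adjusted p = 0.405), and *Cybb* in G-MDSCs at −0.17 (adjusted p = 0.684), while *Rac1* passed in G-MDSCs at 0.66 (adjusted p = 0.018). Scaled by library totals, *Cyba* passed in M-MDSCs (0.65) and *Cyba*, *Rac1* and *Rac2* in G-MDSCs (0.64, 0.60 and 0.59), with the median gene at 0.17 and 0.16. Over all genes the calls then split into 684 higher and 569 lower in M-MDSCs, instead of 351 and 709, and into 793 and 854 in G-MDSCs, instead of 436 and 1086.

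Macrophage markers (7 of 8 above the filter, among them *C1qa* and *Vcam1*) moved with the genotype. Their sum lay between 115 and 131 CPM in WT M-MDSCs, where Nlrp3-/- mice had 218 to 331, and between 134 and 245 in WT G-MDSCs, where Nlrp3-/- mice had 404 to 574. *Siglec1*, of that list, was at 0 counts in all G-MDSC libraries. The sum of NK cell markers (4 of 4 above the filter) moved with the genotype too, with at most 88.1 CPM in WT and at least 119 in Nlrp3-/- M-MDSCs and at most 54.4 in WT and at least 74.8 in Nlrp3-/- G-MDSCs. Of those 4 genes *Gzma* alone separated the genotypes in both subsets. *Klrb1c* overlapped in both, in G-MDSCs with 4.06 to 10.0 CPM in WT and 3.95 to 11.5 in Nlrp3-/- mice. In G-MDSCs the genotypes did not overlap in the sums of monocyte markers (628 to 928 CPM in WT, 1010.3 to 1208 in Nlrp3-/- mice) and of dendritic cell markers (153 to 206, 213 to 271) either. Single genes made up most of these sums, *Csf1r* (means of 495 in WT and 817 in Nlrp3-/- mice) and *Itgax* (176 and 241). *Ccr2* (8.53 and 6.26) and *Clec9a* (2.67 and 2.03), of the same lists, were lower in the mean in Nlrp3-/- mice. The part of these cells in the genotype differences of the 7 genes and of the pathway genes named further on was not tested.

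Whether the genotype difference itself differed between M-MDSCs and G-MDSCs was tested in a single model of all 16 libraries, which did not pair the subsets of a mouse. No gene of the 7 passed an adjusted p of 0.05, and none had an unadjusted p under it. DESeq2 called 0 as well, and so did a fit with the mouse as a block. Over all genes the main model called 0.0187% higher and 0.00935% lower. The largest difference of the 7 was that of *Cybb*, −0.61 ± 0.31 on the log2 scale (unadjusted p = 0.0681, adjusted p = 0.992), and the other 6 lay between −0.16 and 0.24. Taken per mouse, the mean subset difference of *Cybb* was −1.64 in WT and −2.17 in Nlrp3-/- mice (exact permutation p = 0.2, 4 mice against 4), and for 0 of 7 genes did the WT and Nlrp3-/- mice separate, which 4.72% of all genes did.

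Ratios of 2 counts of the same library do not depend on how libraries are scaled, and their change between groups, not their size, is what can be read. The ratio of *Rac2* to *Rac1* was 0.950 to 1.43 in WT and 0.814 to 1.27 in Nlrp3-/- M-MDSCs, while G-MDSCs had 4.65 to 7.18 in WT and 4.55 to 6.13 in Nlrp3-/- mice. The subsets were far apart in this ratio and the genotypes overlapped, with mean log2 ratios of 0.14 ± 0.26 (SD, n = 4) and 0.09 ± 0.29 in M-MDSCs and of 2.38 ± 0.31 and 2.38 ± 0.22 in G-MDSCs.

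The ratio of *Cybb* to *Cyba* fell from M-MDSCs to G-MDSCs and, in each subset, was lower in all 4 Nlrp3-/- libraries than in all 4 WT libraries. It was 4.79 to 6.45 in WT and 3.58 to 4.60 in Nlrp3-/- M-MDSCs, while G-MDSCs had 0.975 to 2.88 in WT and 0.578 to 0.955 in Nlrp3-/- mice. The mean log2 ratios were 2.52 ± 0.19 and 2.07 ± 0.16 in M-MDSCs and 0.59 ± 0.69 and −0.49 ± 0.32 in G-MDSCs. In both subsets the gap between the nearest WT and Nlrp3-/- library was narrow, 4.79 against 4.60 and 0.975 against 0.955. The ratios were described without a test, and how often other gene pairs separate the genotypes was not counted. Nor were the ratios corrected for GC content and length. That correction moved the genotype log2 fold change of *Cyba* from 0.52 to 0.11 in G-MDSCs and from 0.55 to 0.22 in M-MDSCs. With the replicate block added, it moved *Cybb* in G-MDSCs from −0.62 to −0.098.

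The ratio of *Ncf4* to *Ncf1* was 0.251 to 0.449 in WT and 0.359 to 0.517 in Nlrp3-/- M-MDSCs, while G-MDSCs had 0.103 to 0.265 in WT and 0.199 to 0.286 in Nlrp3-/- mice. The genotypes overlapped in it, and its lowest value in each subset was that of WT replicate 1, the mouse with the high *Ncf1*. The 7 genes together held 0.347% to 0.637% of the counts of a library.

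**Figure D4:**
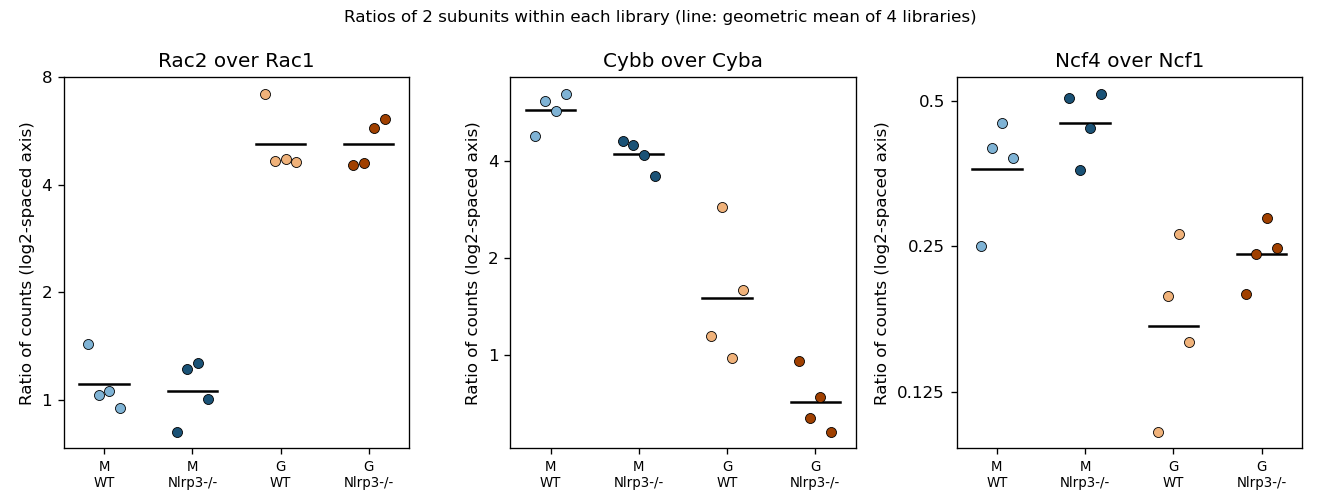
Ratio of the counts of 2 subunits within each library (vertical axes, log2-spaced), with a point per library and a line for the geometric mean of 4. *Rac2* over *Rac1* separates the subsets (at most 1.43 against at least 4.55), *Cybb* over *Cyba* runs from 6.45 down to 0.578 across the 4 groups, and *Ncf4* over *Ncf1* is lowest in WT replicate 1 of each subset.

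The counts of list genes called between subsets stand beside 26.3% higher and 27.1% lower of all genes tested in WT and 23.7% and 27.4% in Nlrp3-/- mice. Of 15 measured Rac regulators, 6 were higher and 3 lower in WT G-MDSCs and 4 were higher and 3 lower in Nlrp3-/- ones, close to those shares in the latter. *Arhgap25*, a GTPase-activating protein that turns Rac off in phagocytes, was higher in G-MDSCs (log2 fold change 2.25 in WT and 2.35 in Nlrp3-/- mice) and *Tiam1*, a Rac exchange factor, was lower (−2.52 and −2.66). Of 18 kinases and lipid enzymes of activation, 10 were higher in WT and 11 in Nlrp3-/- G-MDSCs and none was lower. Among them were *Prkcb*, a protein kinase C that phosphorylates p47phox (1.52 in WT), and *Pak2*, a kinase that Rac activates (1.41 in WT and 1.49 in Nlrp3-/- mice). Of 6 related small GTPases, 2 were higher and 1 lower in WT and 4 were higher and 1 lower in Nlrp3-/- G-MDSCs. *Rhog* (1.35 and 1.09) was called in both genotypes, though not in Nlrp3-/- mice when libraries were scaled by their totals (0.37, adjusted p = 0.0542), as was *Rap1a* in the other direction (−0.92 and −0.72), a GTPase that binds the oxidase core. *Cdc42* and *Rap1b* were called in Nlrp3-/- mice alone (0.62 and 0.65), a difference between genotypes that did not pass. In WT mice *Cdc42* was at 0.44 (adjusted p = 0.0752) and *Rap1b* at 0.581 (adjusted p = 0.0111), just under the fold minimum of 0.585 on the log2 scale. In Nlrp3-/- mice *Cdc42* and *Rap1b* turned to −0.10 and −0.074 when libraries were scaled by their totals. Their calls were lost in 1 and 2 of 8 fits that each left out 1 library.

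Of 8 measured transcription factors known to act on oxidase genes, 4 were higher and 3 lower in WT G-MDSCs and 4 were higher and 2 lower in Nlrp3-/- ones. *Cebpe*, the factor of late granulocyte maturation, was higher (3.17 and 2.52) and *Irf8*, which drives monocytes at the cost of granulocytes, was lower (−2.40 and −2.22). *Cebpa*, an early myeloid factor, was lower (−2.36 and −1.95) and *Irf1*, an interferon-induced factor, higher (1.43 and 1.41). Of 8 measured genes listed for NADPH supply, not all of which make NADPH themselves, 2 were higher and 4 lower in G-MDSCs of both genotypes. Over all genes tested 26.3% were higher and 27.1% lower in WT and 23.7% and 27.4% in Nlrp3-/- mice, so the higher count was near its share. *Taldo1*, of the pentose phosphate pathway, was higher (2.04 and 2.1), and *Idh2*, a mitochondrial isocitrate dehydrogenase, was lower (−2.23 and −2.76). Of 5 genes of charge and pH balance, *Trpm2*, a cation channel gated by ADP-ribose, was higher by 5.20 and 4.62 and was the only one called. Of 3 negative regulators, *Ptpn6*, which encodes the phosphatase SHP-1, was called in both genotypes (1.09 and 1.38), but not in WT mice when libraries were scaled by their totals (0.34, adjusted p = 0.117). The medians of these lists ran from −0.53 (NADPH supply) to 0.75 (kinases and lipid enzymes) in WT and from −0.94 (NADPH supply) to 0.73 (kinases and lipid enzymes) in Nlrp3-/- mice, beside −0.05 and −0.12 over all genes tested.

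Between genotypes, 0 to 2 genes of a list were called in M-MDSCs and 0 to 4 in G-MDSCs, beside the 3.51% higher and 7.1% lower, and 4.7% and 11.7%, of all genes tested. *Vav3*, a Rac exchange factor, was lower in Nlrp3-/- M-MDSCs (−1.10 ± 0.20 SE, adjusted p = 0.00751) and G-MDSCs (−1.52 ± 0.21, adjusted p = 0.000313), the only call among 15 Rac regulators in each subset. *Pak2* was lower in both as well (−1.31, adjusted p = 0.00201, and −1.22, adjusted p = 8.57e-05). Among the 18 kinases and lipid enzymes it was the only call in M-MDSCs, and in G-MDSCs 2 were higher and 2 lower, with *Akt1* at 1.08 (adjusted p = 0.0145) and *Plcb2* at −0.63 (adjusted p = 0.0308). *Nrros*, which encodes a protein that lowers the amount of gp91phox, was higher in Nlrp3-/- M-MDSCs (0.63, adjusted p = 0.0277) and G-MDSCs (0.88, adjusted p = 0.00247), 1 call of 3 negative regulators in each. *Rela*, a subunit of NF-κB, was higher in both (0.77, adjusted p = 0.0221, and 0.82, adjusted p = 0.00787), joined in M-MDSCs by *Irf1* (0.70, adjusted p = 0.0279), which makes 2 and 1 of 8 transcription factors. *Taldo1* was higher in Nlrp3-/- G-MDSCs (0.59, adjusted p = 0.0189), 1 of 8 genes listed for NADPH supply, and no small GTPase or charge-balance gene was called. The calls of *Nrros*, *Rela* and *Irf1* in M-MDSCs were lost in 6, 6 and 5 of 8 fits that each left out 1 library, and those of *Plcb2* and *Taldo1* in G-MDSCs in 5 and 4 of 8, while *Vav3* and *Pak2* kept theirs in all 8 in both subsets. Corrected for GC and length, *Akt1* (adjusted p = 0.0878), *Rela* (0.0742) and *Taldo1* (0.273) lost theirs in G-MDSCs and *Irf1* (0.0989), *Rela* (0.118) and *Nrros* (0.0732) in M-MDSCs.

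The genes whose profile over the 16 libraries was nearest to each member were found among the 10696 genes tested together, by the root mean square difference of log2 CPM after each gene's own mean was taken off. For *Cybb* they were *Timm22* (0.19) and *Ndufc1* (0.22), and for *Cyba* *Atp6v0b* (0.09) and *Hcfc1r1* (0.12). For *Ncf1* they were *Timp2* (0.30) and *Treml2* (0.33), and for *Ncf4* *Gnai2* (0.14) and *Aldh3b1* (0.15). *Rac1* was nearest to *Tmem9b* (0.11) and *Spg21* (0.13), *Rac2* to *Cdk2ap2* (0.15) and *Msrb1* (0.15), and *Hvcn1* to *Rinl* (0.21) and *Map3k15* (0.23). No other member was among the 2 nearest genes of any of the 7. The closest pair of members was *Cyba* and *Rac1* at 0.28, and the farthest was *Cybb* and *Rac2* at 2.16. Genes that vary little lie close by this measure. The own SDs of *Cyba* and *Rac1* over the 16 libraries were 0.39 and 0.29, and *Rac1* had rank 282 among the genes nearest to *Cyba*. *Ncf1* and *Rac2* were at 0.51, with own SDs of 1.22 and 1.18, and *Rac2* had rank 68 for *Ncf1*.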

How the data were processed

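mRNA of 16 sorted samples, 1 mouse each, was sequenced as QuantSeq 3′-end libraries. The paper gives more than 1 number of amplification cycles without saying which library had which. Days of sorting are not given either, so batch could not be examined. The authors mapped reads to mm10 with HISAT2 2.1.0, counted them per gene and strand with htseq-count, and deposited whole-number counts, used here unchanged. The members and gene lists were chosen with earlier results of these data known.

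Counts were tested in R 4.3.3 with edgeR 4.0.16 (filterByExpr, TMM, quasi-likelihood F test), 4 libraries against 4, with Benjamini-Hochberg adjustment over all genes tested (9273 to 10071, and 10696 in the model of all 16). A call needed an adjusted p under 0.05 and a fold change of at least 1.5, and for the difference of genotype effects the adjusted p alone. An SE is the log2 fold change divided by the root of its F statistic. Log2 CPM used a prior count of 2. Exact two-sided permutation tests used scipy 1.17.1. Scripts were tested on simulated data.

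M-MDSCs and G-MDSCs that share a replicate number came from 1 mouse per the labels, and deviated together from their group means (mean correlation 0.24 in WT and 0.19 in Nlrp3-/-). Beside the members, the text names up to 3 called genes with the smallest p per list and comparison, with their values in the paired comparison, and the 2 genes nearest in profile. *Rubcn*, *Ly6g* and *Trac* were not matched. A list of further oxidase family genes is not reported here. Alternatives were DESeq2 1.42.0, edgeR's exact test, other scalings and filters, 1 model of all 16 libraries, no fold minimum, a replicate block, a correction for GC content and length, and each library left out.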

Additional observations from a re-analysis of the deposited data

Results flagged for a closer look

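Of the values, 3 stood far from the other 3 libraries of their group by Dixon's test at the 95% level, of 28 groups of 4 tested, where chance flags about 1 group in 20. *Ncf1* was at 732 CPM in M-MDSC WT replicate 1, with the others at 235 to 302. *Ncf4* was at 184 CPM in the same library, with the others at 104 to 115. *Cybb* was at 2554 CPM in M-MDSC Nlrp3-/- replicate 3, with the others at 1973 to 2050.3. The G-MDSC library of WT replicate 1 also held the highest *Ncf1* (3516 CPM) and *Ncf4* (364 CPM) of its group, without passing Dixon's test.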

How the results depend on the processing

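The 5 genes called between subsets kept their calls in both genotypes under every alternative but scaling by library totals, described with the result. Results between genotypes depended more on the processing, and the cause was not tested. In M-MDSCs (0 members and 1060 genes called) scaling by totals gave 1 member, and 2 members then did not overlap between genotypes, the replicate block gave 425 genes, a correction for GC and length 658, and both together 48. In G-MDSCs (0 members and 1522 genes) scaling by totals gave 3 members, no fold minimum 2 (*Cyba* and *Rac1*), and no filter (*Cybb*), the model of all 16 libraries (*Cyba*) and the GC and length correction (*Rac1*) 1 each. The block gave 985 genes, the correction 962 and both 395. Among member values, *Cybb* in G-MDSCs was at −0.098 (adjusted p = 0.857) with both, and *Cyba* and *Rac1* had adjusted p = 0.0936 and 0.119 with the block. Of the pathway calls, both together left none of those named in M-MDSCs (*Vav3* adjusted p = 0.0889, *Pak2* 0.0565) and in G-MDSCs those of *Vav3* and *Pak2* (lost were *Akt1* at 0.100, *Plcb2* 0.117, *Rela* 0.148, *Taldo1* 0.453 and *Nrros* 0.0533). WT and Nlrp3-/- mice with the same number share no origin in the labels (mean correlation −0.16 and −0.15). Between genotypes the block therefore pairs mice by number alone, and it leaves fewer values to estimate the spread. The pairing by mouse, as a block, changed no call of the 7 genes between subsets. For the difference of genotype effects (3 genes) DESeq2 called 8 and no filter 5.

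Signs turned for small differences. Corrected for GC and length, without and with the block, *Ncf4* was at −0.12 and −0.091 and *Hvcn1* at −0.025 and −0.079 in M-MDSCs, and *Ncf4* at −0.26 and −0.26 and *Hvcn1* at −0.16 and −0.15 in G-MDSCs. Between subsets, scaling by totals put *Cyba* at −0.46 in both genotypes and, in Nlrp3-/- mice, *Cdc42* at −0.10 and *Rap1b* at −0.074, and *Rac1* of Nlrp3-/- mice was at 0.014 with DESeq2 and with its size factors, 0.088 in the model of all 16, 0.085 with the correction and 0.093 with the block added. In the difference of genotype effects *Ncf4* was at −0.039 with DESeq2 and with its size factors, −0.054 by totals, −0.12 with the correction and −0.15 with the block added, *Cyba* at −0.00576, −0.037 and −0.034 under the last 3, and *Hvcn1* at 0.067 with the block.

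Leaving out 1 library at a time gave 450 to 1783 genes and 0 to 1 members in M-MDSCs, 1104 to 1544 genes and 0 to 2 members in G-MDSCs, 4838 to 5272 genes (WT) and 4810 to 5106 genes (Nlrp3-/-) with 5 members between subsets, and 2 to 5 genes with 0 members for the difference of genotype effects. The lowest count in M-MDSCs was without Nlrp3-/- replicate 4 and the highest without Nlrp3-/- replicate 1. Log2 ranges that cross 0 were −0.45 to 0.26 for *Ncf1* in M-MDSCs, −0.030 to 0.25 for *Hvcn1* in G-MDSCs, −0.14 to 0.049 for *Rac1* between subsets of Nlrp3-/- mice, and, in the difference of genotype effects, −0.16 to 0.22 for *Cyba*, −0.22 to 0.18 for *Hvcn1*, −0.69 to 0.32 for *Ncf1*, −0.20 to 0.15 for *Ncf4* and −0.00330 to 0.40 for *Rac2*. *Hvcn1*, at 29 to 162 counts, was the member most limited by depth.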
